A study of Sus scrofa with 2 samples.

Results

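The genes described here are the 59 listed ligands, latency proteins, receptors, SMADs, antagonists and early targets of transforming growth factor beta (TGF-beta), bone morphogenetic protein (BMP) and activin signalling. They were picked by name from the 25880 gene identifiers of the table, of which 14857 were paired with a pig gene symbol, and all 59 had an identifier. The samples were 2 RNA-seq libraries of PSI, a single clone of smooth muscle cells from pig ileum (distal small intestine), cultured with antibiotics in DMEM that held 10% fetal bovine serum. They form 1 group with no treated, tissue or other-cell group, so every value below is a description and no condition was tested. No separate cultures or animals are named for the duplicates, so the SD (n = 2) is that between libraries and may be technical.

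Ligands of this family are secreted as dimers. TGF-beta is released in a latent complex with proteins of the LTBP family and has to be freed before it can bind. A ligand joins a type II receptor kinase to a type I receptor kinase, which phosphorylates a receptor SMAD. SMAD2 and SMAD3 serve TGF-beta and activin, and SMAD1, SMAD5 and SMAD9 serve BMPs. The receptor SMADs enter the nucleus with SMAD4. In smooth muscle, TGF-beta is known for driving contractile and matrix genes, and BMPs of the gut wall are known for acting on both muscle and epithelium.

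Levels are given in FPKM, fragments scaled to gene length in kilobases and to the library's total reads. Ratios between genes also depend on the counted gene models, which the SD between libraries does not cover. The totals behind the values were 35176565 in replicate 1 and 32217729 in replicate 2, which makes a single read over 1 kb equal to 0.0284 FPKM in the first library and 0.0310 FPKM in the second. Totals and read counts were recovered from the FPKM values, and a printed read count is the smallest that fits, so the true count of a gene can be higher. Detection here means that neither library fell below 1 FPKM. Of the smooth muscle markers checked, 7 of 10 were detected, beside 61.5% of all genes with a symbol. Led by ACTA2, ACTG2 and CNN1, 5 of them had a mean of 10 FPKM or more. TAGLN had 5.34 and 5.58 FPKM in replicates 1 and 2, and DES had 2.74 and 3.06. MYH11 had 0.461 and 0.522 FPKM, and MYOCD and KCNMB1 were listed at 0. No epithelial marker of 7 was detected, nor were any of 5 neuron and glia markers or either marker of interstitial cells of Cajal. Of the markers of other cells, 3 of 5 fibroblast, 2 of 6 leukocyte and 1 of 6 endothelial genes were detected, each under 3 FPKM in both libraries. In such bulk RNA, fewer cells of a type and less RNA per cell cannot be told apart.

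A value of 0 needs care in this table. Of 44 ribosomal protein genes, which all cells use, 4 were under 1 FPKM in a library: RPL29 and RPS27A were listed at 0 in both, RPS21 had 0 and 0.244 FPKM and RPS2 had 0.421 and 0.625. A gene at 0 is therefore called "listed at 0" here and not silent.

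A majority of the 59 genes was detected, as was a majority of all symbols. Of the 59 genes, 42 were detected, 71.2%, against 61.5% of all 14856 symbols. At a mean of 10 FPKM or more there were 26 of the 59, 44.1%, against 33.3% of all symbols. The median level was 3.16 on the log2(FPKM + 1) scale for the 59 genes and 2.29 for all symbols. Their FPKM values added up to 0.513% (replicate 1) and 0.514% (replicate 2) of the column sums. Of the 17 genes that were not detected, 15 were under 1 FPKM in both libraries and 2, FST and INHBB, lay on either side of it.

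**Figure D1:**
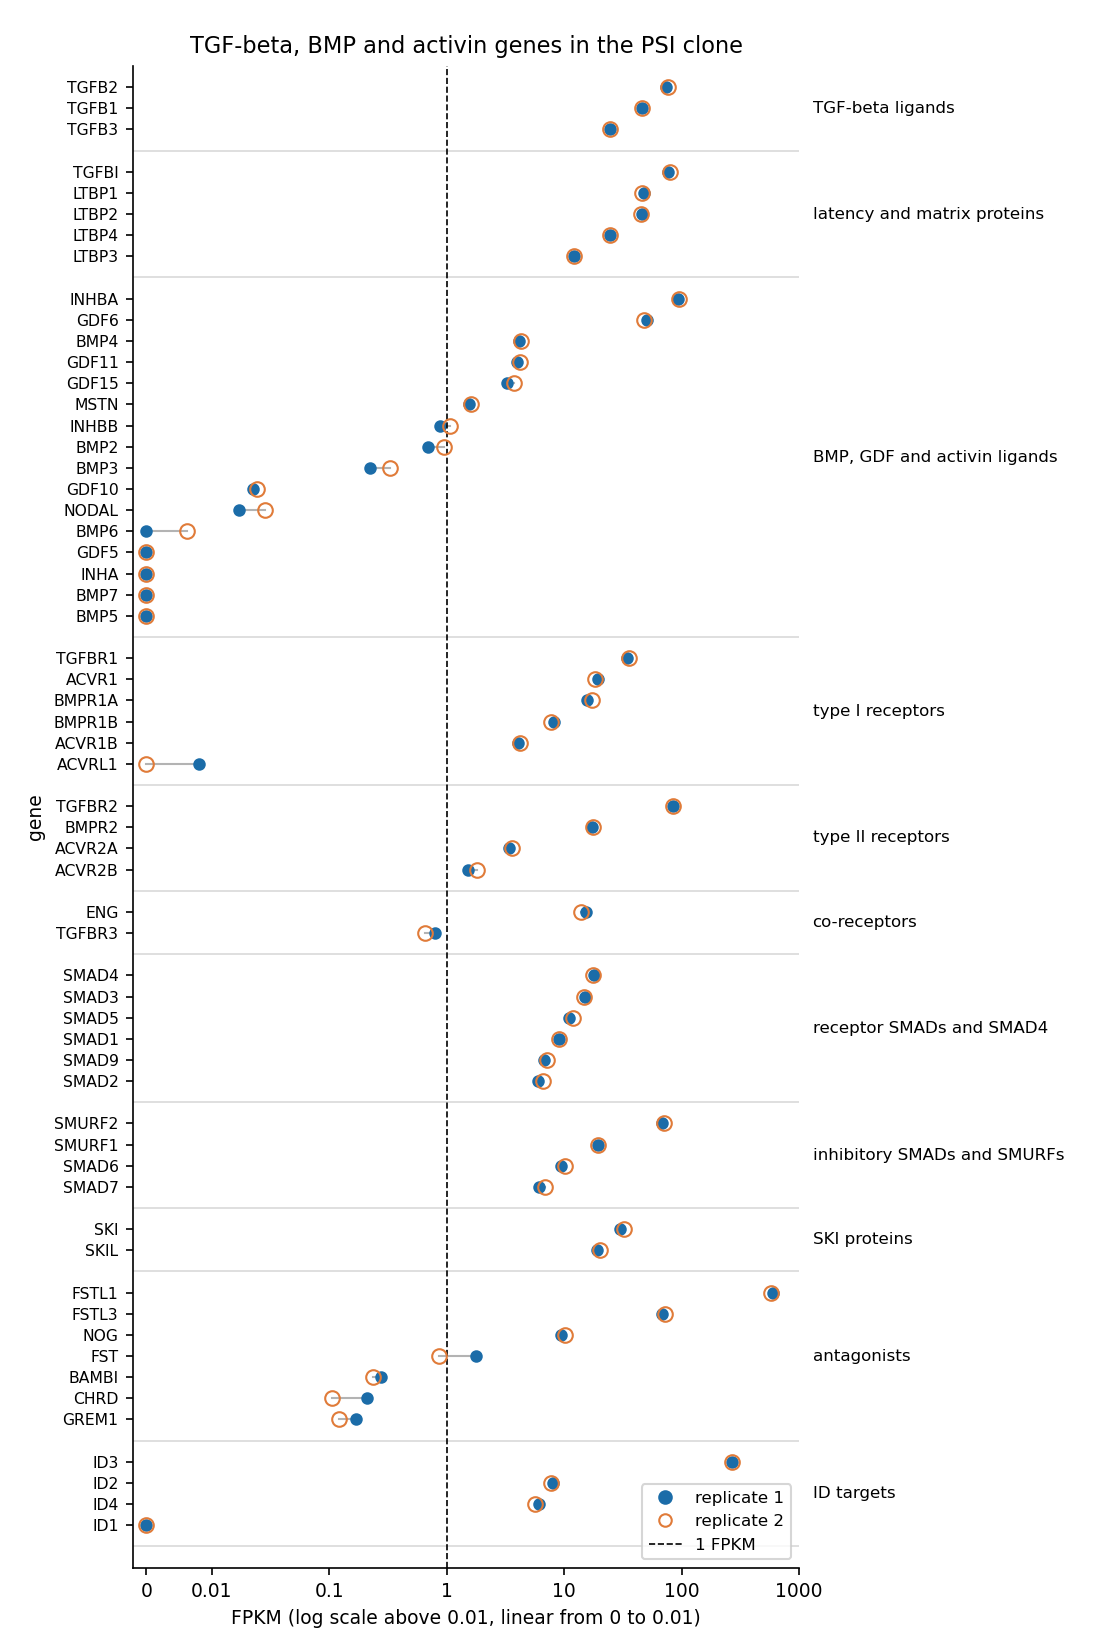
FPKM of each of the 59 genes in replicate 1 (filled) and replicate 2 (open), grouped by role, on a log scale above 0.01 FPKM. FSTL1 and ID3 stand highest, TGF-beta ligands and their latency proteins all lie above 10 FPKM, and most undetected genes are BMP family ligands and antagonists.

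The levels were uneven. FSTL1 alone made up 31.7% and 30.6% of the summed FPKM of the 59 genes in replicates 1 and 2, and the 10 highest genes made up 75.4% and 75.1%. By mean FPKM the detected genes ran from 588 for FSTL1 down to 1.58 for MSTN. Of the 41 pairs of detected genes next to each other in this order, 16 overlapped between libraries and their order is not resolved. Among them were TGFBI and TGFB2, FSTL3 and SMURF2, the pairs of neighbours among LTBP1, TGFB1 and LTBP2, and SMAD7 and SMAD2.

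**Figure D2:**
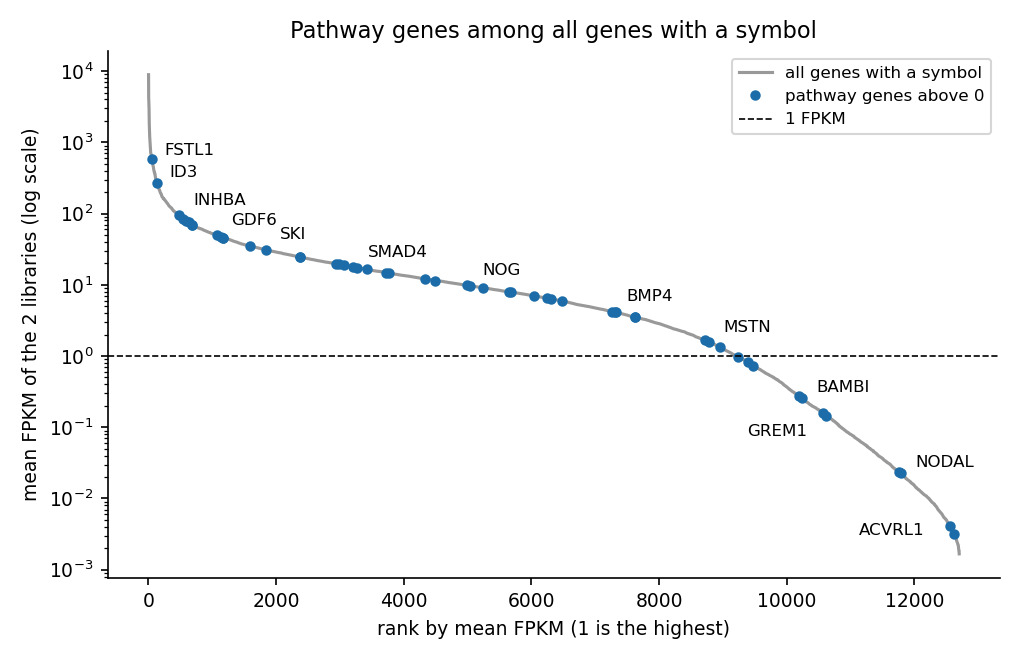
Mean FPKM (log scale) of all symbols ordered by rank, with the pathway genes above 0 marked. FSTL1 (rank 54) and ID3 (rank 132) lie among the most abundant transcripts, and the rest are spread down the curve to single reads.

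All 3 TGF-beta ligands were detected, and TGFB2 was the highest. TGFB2 had 73.5 FPKM in replicate 1 and 76.6 in replicate 2. TGFB1, the most widely expressed of the ligands, had 46.2 and 46.1 FPKM, and TGFB3 had 24.7 and 24.5. The ranges of the 3 ligands did not overlap. The ratio of TGFB2 to TGFB1 was 1.63 ± 0.0495 (SD, n = 2) and that of TGFB1 to TGFB3 was 1.87 ± 0.0113. RefSeq, on assembly Sscrofa11.1, places the protein-coding genes TGFB1 on chromosome 6 from 49332169 to 49348642, TGFB2 on chromosome 10 from 8306136 to 8435307 and TGFB3 on chromosome 7 from 99133873 to 99162239. TGFB1 and TGFB3 each overlap another protein-coding gene there.

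LTBP1, LTBP2, LTBP3, LTBP4 and TGFBI, the latency and matrix genes of the 59, were all detected. LTBP1 and LTBP3 bind the latent complex and tie it to matrix fibrils, and LTBP4 does so mainly for TGF-beta 1. LTBP1 had 47.7 and 46.1 FPKM in replicates 1 and 2, LTBP4 had 24.7 and 24.5, and LTBP3 had 12.1 and 12.1. LTBP2, which resembles the others but does not bind latent TGF-beta, had 46.3 and 45.5 FPKM. TGFBI, a secreted matrix protein named for its induction by TGF-beta, had 76.5 and 79.7 FPKM. LTBP1 was 3.87 ± 0.108 times as high as LTBP3 (SD, n = 2), and LTBP1 and LTBP2 were not separated from TGFB1 in level.

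The genes known to process the ligands or to free latent TGF-beta were in part abundant. Of 20 such genes, 14 were detected, beside 61.5% of all symbols. THBS1, the matrix protein thrombospondin 1, which can activate latent TGF-beta, had 3003 FPKM in replicate 1 and 3010 in replicate 2, above FSTL1. ITGB1, an integrin beta chain, had 644 and 656 FPKM. BMP1, an astacin protease that cleaves procollagens and chordin and is no ligand in spite of its name, had 176 and 178, and the membrane protease gene MMP14 had 150.5 and 149.8.

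Of the 16 BMP, GDF and activin ligands, 6 were detected, beside 61.5% of all symbols. INHBA and GDF6 held most of the sum of the 16. INHBA, which encodes the activin A subunit, had 93.1 FPKM in replicate 1 and 95.4 in replicate 2, 58.8% and 59.7% of the summed level of the 16 ligands. INHBB, the subunit of activin B, had 0.881 and 1.07 FPKM, and INHA, the alpha subunit that turns activin into inhibin, was listed at 0. GDF6, a BMP-type ligand known from joint and skeletal development, had 50.5 and 48.2 FPKM. BMP4, a mesenchymal BMP of the gut wall, had 4.11 and 4.28 FPKM, so that GDF6 stood 11.8 ± 0.735 times as high (SD, n = 2).

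The remaining ligands were low. GDF11 had 3.97 and 4.23 FPKM in replicates 1 and 2. GDF15, a stress-induced cytokine that signals through a receptor outside the family, had 3.28 and 3.73. MSTN, the growth inhibitor of skeletal muscle, had 1.55 and 1.61 FPKM from 83 and 79 reads. BMP2, BMP3 and the ligands with fewer reads than these stayed under 1 FPKM in both libraries. BMP2 had 0.692 and 0.947 FPKM and BMP3 had 0.224 and 0.329. GDF10 had 0.0224 and 0.0244 FPKM from 5 and 5 reads, NODAL had 2 and 3 reads, and BMP6 had no read in replicate 1 and 1 in replicate 2. BMP5, BMP7 and GDF5 were listed at 0 in both libraries, as was INHA. Of 10 measured further ligands outside the 59 genes, GDF9 alone was detected, at 1.67 and 1.28 FPKM, beside 61.5% of all symbols. LEFTY2 had 0.129 and 0.366, GDF2 had 0.0269 and 0.0294, and the other 7, BMP10 among them, were listed at 0.

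**Figure D3:**
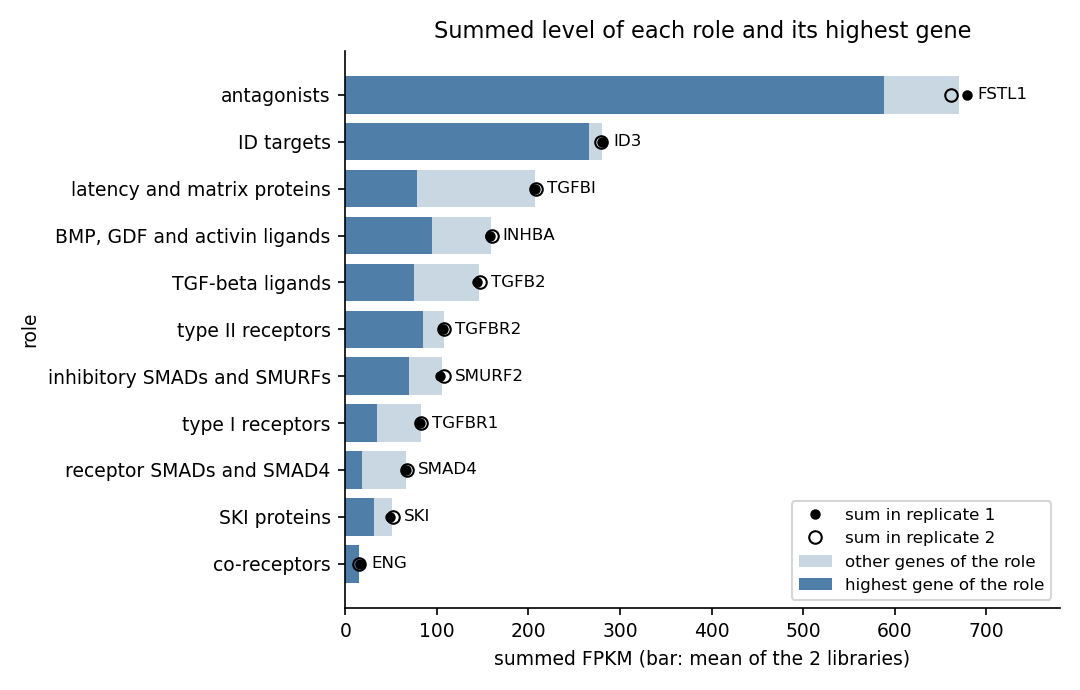
Summed FPKM of the genes of each role (bar, mean of the 2 libraries; points, each library), with the part held by its highest gene in dark blue. In most roles a single gene holds most of the sum. The share is highest for ENG in the 2 co-receptors (95.0% and 95.6%) and ID3 in the ID genes (95.0% and 95.2%, with ID1 listed at 0). SMAD4 holds 27.1% and 26.4% of the sum of the receptor SMADs and SMAD4.

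Both TGF-beta receptor kinases were detected. TGFBR2, the type II receptor, had 85.0 FPKM in replicate 1 and 84.9 in replicate 2, and TGFBR1, the type I receptor, had 34.6 and 35.4. TGFBR2 was 2.43 ± 0.0427 times as high as TGFBR1 and 4.88 ± 0.0783 times as high as BMPR2 (SD, n = 2). It made up 79.3% and 78.7% of the summed FPKM of the 4 type II receptors. RefSeq places TGFBR2 on chromosome 13 from 16784370 to 16875828 and TGFBR1 on chromosome 1 from 240842735 to 240918267, both as protein-coding genes without an overlapping gene.

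The BMP receptors were at intermediate levels. BMPR2, a type II receptor of BMPs, had 17.2 and 17.6 FPKM in replicates 1 and 2. ACVR1, a type I receptor of BMPs, had 19.3 and 18.5 FPKM, BMPR1A had 15.7 and 17.1 and BMPR1B had 8.12 and 7.77. Summed, these 3 type I receptors had 43.1 and 43.3 FPKM, against 38.6 and 39.6 FPKM for TGFBR1 and ACVR1B, a ratio of 1.11 ± 0.0165 (SD, n = 2).

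The activin receptors were lower. ACVR1B, the type I receptor of activin, had 4.02 and 4.22 FPKM in replicates 1 and 2, so that TGFBR1 was 8.51 ± 0.147 times as high (SD, n = 2). The type II receptor ACVR2A had 3.38 and 3.63 FPKM, and ACVR2B had 1.54 and 1.80, a range that overlapped that of MSTN. ACVR1B and ACVRL1, a type I receptor of endothelium, are next to each other on chromosome 5, 30.2 kb apart, with no protein-coding gene starting between them in RefSeq. ACVRL1 had a single read in replicate 1 (0.00815 FPKM) and none in replicate 2.

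The co-receptors differed from each other in level. ENG, the glycoprotein endoglin, which presents ligands in endothelium and mesenchyme, had 15.3 FPKM in replicate 1 and 14.0 in replicate 2. TGFBR3, betaglycan, which binds TGF-beta 2 with high affinity, had 0.801 and 0.649 FPKM from 178 and 132 reads. The ratio of ENG to TGFBR3 was 20.4 ± 1.79 (SD, n = 2). Of the 6 measured endothelial markers, PECAM1 alone was detected, at 1.92 and 1.60 FPKM, and CDH5, KDR and TIE1 were listed at 0. Which cells gave the ENG RNA was not tested. Further receptors and co-receptors were detected in 5 of 8 measured cases, beside 61.5% of all symbols. NRP1 had 48.4 and 49.1 FPKM, CD109, a cell surface protein that binds TGF-beta, had 33.3 and 34.0, NRP2 had 22.5 and 22.1, and RGMB, a BMP co-receptor, had 21.0 and 20.6.

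All 5 receptor SMADs and SMAD4 were detected. SMAD4, the shared partner, was the highest, with 17.9 FPKM in replicate 1 and 17.7 in replicate 2. SMAD3 had 15.1 and 14.6 FPKM and SMAD2 had 6.01 and 6.67, so that SMAD3 stood 2.35 ± 0.222 times as high (SD, n = 2). On the BMP side SMAD5 had 11.07 and 11.91 FPKM, SMAD1 had 9.10 and 8.99, and SMAD9 had 6.77 and 7.18. SMAD2 and SMAD3 together had 21.1 and 21.3 FPKM, against 26.9 and 28.1 for SMAD1, SMAD5 and SMAD9, a ratio of 0.771 ± 0.0173.

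The inhibitory SMADs were at levels like those of the receptor SMADs, and the ubiquitin ligases and SKI proteins were higher. SMAD6, which blocks mainly BMP signals, had 9.34 and 10.1 FPKM in replicates 1 and 2, and SMAD7, which blocks both branches and is itself induced by TGF-beta, had 6.10 and 6.87. SMURF2, a ubiquitin ligase that SMAD7 brings to the receptors, had 68.2 and 71.1 FPKM. SMURF1, the related ligase named for its action on BMP SMADs, had 19.4 and 19.3, so that SMURF2 was 3.59 ± 0.114 times as high (SD, n = 2). SKI, a co-repressor that binds SMADs, had 30.0 and 32.1 FPKM, and its relative SKIL had 19.2 and 20.1. SMURF2 lies on chromosome 12 from 14368683 to 14492129 in RefSeq.

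Partners and modulators of the SMADs were detected in 29 of 32 measured cases, beside 61.5% of all symbols. PMEPA1, a membrane protein that is induced by TGF-beta and restrains it, had 97.9 FPKM in replicate 1 and 97.7 in replicate 2. STRAP, a WD-repeat protein that binds the receptors, had 86.8 and 88.1. RUNX1, a transcription factor that joins SMADs on DNA, had 35.1 and 34.8 FPKM, and TAB2, an adaptor of the TAK1 kinase, had 32.7 and 32.3. The 3 that were not detected were LDLRAD4, RUNX3 and FOXH1, named here after their values were seen.

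The antagonists spanned a wide range of levels. FSTL1, a secreted glycoprotein with a follistatin domain that binds BMPs and other partners, had 599 FPKM in replicate 1 and 578 in replicate 2, rank 54 of all symbols. RefSeq places it on chromosome 13 from 139847246 to 139901972, where it overlaps a long non-coding RNA gene. FSTL3, which binds activin and myostatin, had 67.8 and 72.4 FPKM, and INHBA stood 1.35 ± 0.0395 times as high (SD, n = 2). NOG, the BMP antagonist noggin, had 9.40 and 10.3 FPKM from 293 and 293 reads, 2.34 ± 0.0780 times the level of BMP4 (SD, n = 2).

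The other antagonists were near or under 1 FPKM. FST, follistatin, the main binder of activin, had 1.78 FPKM (65 reads) in replicate 1 and 0.868 FPKM (29 reads) in replicate 2. FSTL3 stood 38.0 times as high as FST in replicate 1 and 83.4 times in replicate 2. CHRD, chordin, had 0.212 and 0.106 FPKM, GREM1, a BMP antagonist known from the muscle layers of the gut, had 0.170 and 0.121, and BAMBI, a membrane pseudoreceptor that dampens the signal, had 0.275 and 0.238. Of 15 measured further antagonists, 6 were detected, beside 61.5% of all symbols. BGN, the matrix proteoglycan biglycan, had 215 and 214 FPKM, and CHRDL1, a chordin-like BMP binder, had 96.0 and 96.1. NBL1 had 90.4 and 89.8 and CRIM1, a membrane protein that binds BMPs, had 70.1 and 71.2, all above NOG.

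Among the ID genes with reads, early targets of BMP signals that encode dominant-negative partners of bHLH factors, ID3 was by far the highest. ID3 had 266 FPKM in both libraries, rank 132 of all symbols, with 8923 reads in replicate 1 and 8168 in replicate 2. ID2 had 8.07 and 7.71 FPKM and ID4 had 6.09 and 5.70. ID3 was 33.8 ± 1.09 times as high as ID2 and 45.2 ± 2.10 times as high as ID4 (SD, n = 2). These SDs do not cover the gene models, which differ from RefSeq for ID2 and ID4. ID1 was listed at 0 in both libraries, which in this table need not mean silent, so its level relative to ID3 is not known. RefSeq places ID1 on chromosome 17 from 35316518 to 35317742 and ID3 on chromosome 6 from 81422541 to 81424169, neither with an overlapping gene.

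Genes known as targets of TGF-beta were detected in 24 of 25 measured cases, with a median of 5.84 on the log2(FPKM + 1) scale. Genes known as targets of BMPs were detected in 8 of 12, with a median of 1.80. Of all symbols, 61.5% were detected and the median was 2.29. Among the highest of the first list were the collagen genes COL1A1 (3588 FPKM in replicate 1 and 3629 in replicate 2) and COL1A2 (3540 and 3569) and the fibronectin gene FN1 (1357 and 1329). JUNB, named after its value was seen, was the exception and was listed at 0. In the BMP list the transcription factor genes HEY2 (17.6 and 16.9 FPKM) and GATA3 (11.2 and 12.3) were highest, followed by HEY1 (6.79 and 6.50) and GATA2 (6.41 and 6.11). Many genes of both lists respond to other signals too, so their levels do not measure the activity of the pathway. Both lists were chosen with earlier results of these data known. The first holds the smooth muscle markers ACTA2, CNN1 and TAGLN, and the ID genes, early BMP targets, are in neither. The medians therefore do not compare TGF-beta with BMP signals.

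**Figure D4:**
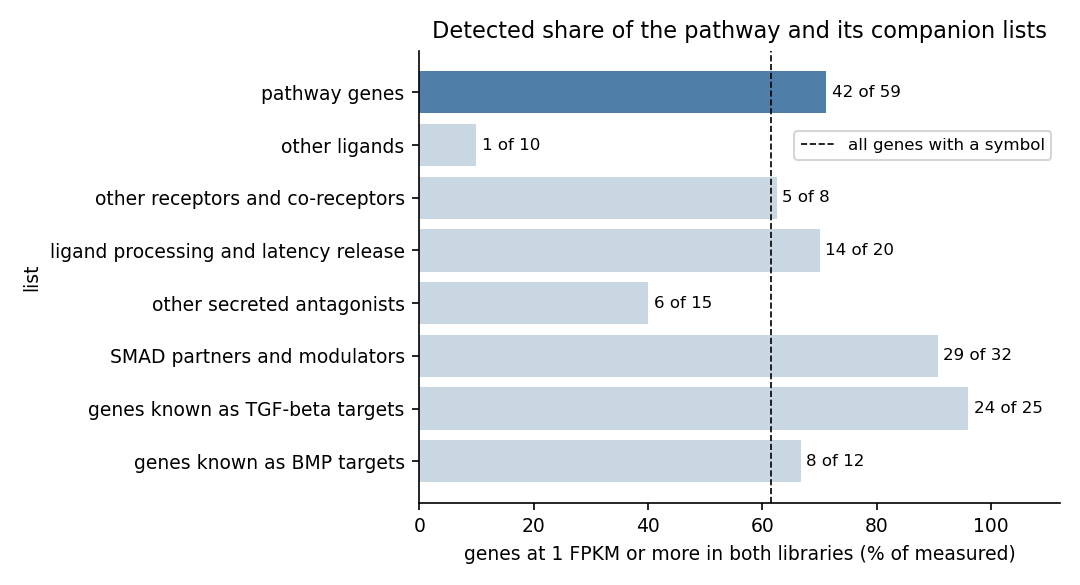
Detected percentage of the measured genes of each list, for the 59 pathway genes and 7 further lists, with counts. The dashed line is the 61.5% of all symbols. The other ligands and other antagonists lie below it and all remaining lists above it, with the TGF-beta target and SMAD partner lists highest.

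Several of the genes lie close together on the assembly, by RefSeq coordinates matched by symbol, and their levels can differ. SMAD6 and SMAD3 are 263 kb apart on chromosome 1 with no other protein-coding gene starting between them. TGFBI and SMAD5 are 62.3 kb apart on chromosome 2, also with none between them, and TGFBI had 76.5 and 79.7 FPKM in replicates 1 and 2 against 11.07 and 11.91 for SMAD5. SMAD2 and SMAD7 are 1001 kb apart on chromosome 1, with 2 protein-coding genes starting between them, and their levels overlapped.

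Some levels carry a limit from the annotation. Of the 59 genes, 13 overlap another protein-coding gene in RefSeq, and without a stated strand setting their reads could be shared with it. The 10 detected ones were FSTL3, TGFB1, LTBP2, TGFB3, SMAD4, BMPR1A, SMAD3, ENG, LTBP3 and MSTN, and their levels are uncertain to that extent. The RefSeq spans of INHBA, ID2, ID4 and INHBB were shorter than the gene length recovered from the FPKM values, so RefSeq and the counted gene models differ for these 4 genes. The entry matched to INHBA by symbol is not classed as protein-coding and spans 1750 bp, against 6522 bp recovered. Whether it is the counted gene was not tested, and overlap with other genes was checked at that entry only.

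The duplicates differed little for the detected genes. Their median coefficient of variation was 3.06%, against 2.41% for all detected symbols, and the highest was 11.3%, for ACVR2B. Reads recovered from the FPKM values were compared between the libraries with a two-sided exact binomial test. With Benjamini-Hochberg adjustment over 16327 genes, 3 of the 54 pathway genes with reads differed between the libraries, 5.56%, against 1.11% of all genes with reads. These shares were not matched for read number, and the test calls a small difference more readily in a gene with many reads. FSTL1 was lower in replicate 2 (adjusted p = 4.15e-09, exact binomial test, 78132 and 69019 reads in replicates 1 and 2), as was ENG (adjusted p = 0.0420, exact binomial test). SKI was higher in replicate 2 (adjusted p = 0.0446, exact binomial test). In replicate 2, ENG fell by 8.29% and SKI rose by 6.97%, the ends of the range of these 3 differences. With Bonferroni adjustment over the same genes the count was 1, FSTL1. FST, with a ratio of 0.487 between replicates 2 and 1, did not pass (adjusted p = 0.0774, exact binomial test), and its level is uncertain by that spread. This is a comparison of libraries, not of conditions, and covers counting error alone. Where the recovered reads of a gene were too few, its p may be too large.

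**Figure D5:**
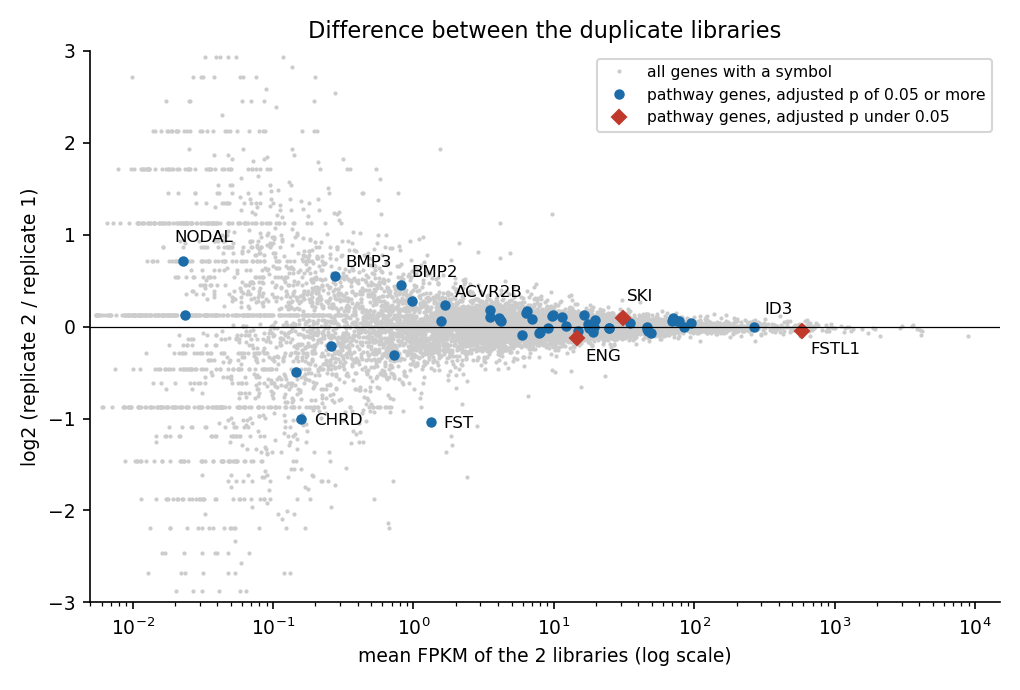
Log2 ratio of replicate 2 to replicate 1 against mean FPKM (log scale) for all symbols above 0 in both libraries and within the axis, and for the pathway genes. Red diamonds mark FSTL1, SKI and ENG, which passed the exact binomial test. FST and CHRD lie well below the other pathway genes of their level.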

How the data were processed

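RNA-seq was made from the PSI clone in duplicate, 1 group. Per the submitters' processing notes, TopHat2 2.0.12, HTSeq 0.6.1 and the Sscrofa11.1 build were used. For the annotation release, the strand setting and any filters, the sources used here give nothing. The deposited FPKM values were made by the authors, and no raw counts were used. Gene symbols were paired with identifiers through a name table, and coordinates came from RefSeq by symbol.

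Low FPKM values are whole multiples of the worth of 1 read. From these steps the library totals and the smallest fitting whole reads were recovered, for 100% of the 16327 genes above 0. Recovered reads summed to 90.8% of each total. There are no molecular identifiers, so read-based tests cover counting error only. Detection was 1 FPKM in both libraries, and medians used log2(FPKM + 1). Reads were compared by a two-sided exact binomial test with Benjamini-Hochberg adjustment at 0.05 (scipy 1.17.1, statsmodels 0.14.6). This comparison and its alternatives were added after values were seen. The scripts were tested on simulated data, where the totals came back exactly but some genes were given fewer reads than they had, so read counts are lower bounds.

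Every pathway gene is accounted for, and of each further list the 4 highest are named, except 1 that is not reported here. The genes and lists were chosen with earlier results of these data known. Genes not paired with a symbol in the name table (such as BMP8A and LRP1) were not analysed here.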

Additional observations from a re-analysis of the deposited data

How the results depend on the processing

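At a detection level of 10 FPKM, 26 of the pathway genes passed in place of 42. Of all symbols, 33.3% had a mean of 10 FPKM or more, beside 61.5% at the main detection level. At 10 FPKM, 3 roles had all members detected in place of 6, and 5 cell markers passed in place of 13. At 5 FPKM, 6 markers passed. The median of 3.16 became 3.01 with a pseudocount of 0.1, 3.68 for genes with a mean of at least 0.1 FPKM and 4.50 in TPM. TPM multiplied every value by 2.71 in replicate 1 and 2.72 in replicate 2, and the summed level of 1891 became 5135. The background share of 61.5% became 40.9% over all identifiers and 62.5% over protein-coding genes. With Bonferroni adjustment, chosen after seeing the data, 1 pathway gene in place of 3 differed between libraries. From 1 library alone, 43 genes were detected, the median was 3.13 to 3.19, the summed level 1889 to 1892, and 9 to 10 of the 10 highest genes were shared with the ranking by mean; a single library lies within the spread of both by construction. Leaving mitochondrial genes out of the total raised every level above 0 by the same factor within a library. This moved 17 of 59 levels beyond that spread. Adding symbols from a second table was not run, since that table holds no Ensembl identifiers; all pathway genes were already matched, but some genes of the further lists, such as BMP8A, LRP1 and ZEB2, were not. No paired analysis was possible because there is 1 group. Depth limits genes with a few reads, such as NODAL, BMP6 and ACVRL1.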
